A study of Mus musculus with 13 samples.

Results

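Stromal cells of the line UG26-1B6 were compared after 2 days of co-culture with LSK cells and before co-culture. The means compared come from 6 of the 13 arrays of the series, 3 from day 2 and 3 from day 0, chosen by the sample labels, and the spread behind each test was estimated over all 13. UG26-1B6 is a single stromal clone from the embryonic mouse urogenital ridge, so every array samples that clone. LSK cells are cells without lineage markers that carry Sca-1 and c-Kit, a fraction rich in haematopoietic stem and progenitor cells.

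For day 2 (48 h), stroma grown to confluence on gelatin was irradiated with 30 Gy, seeded with LSK cells and kept with them. Day 0 (0 h) cells were trypsinised stroma collected with no LSK cells added. The remaining arrays were 2 of day 3 and 3 of day 1 of the same co-culture, and 2 of a medium control, which was stroma harvested 24 h after a change of medium with no LSK cells. The sources used here do not state whether the day 0 and medium stroma had been irradiated, nor how stroma and LSK cells were parted before RNA was taken. Day 2 and day 0 thus differed in LSK cells, in time since plating or medium change and possibly in irradiation, and these cannot be told apart in this comparison. Titles speak of biological replicates and the design text of technical ones. The p-values therefore cover the spread among these arrays, which may be technical.

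Stromal cells support blood-forming cells through a small set of secreted and surface molecules. Among them are CXCL12, a chemokine that retains stem cells through its receptor CXCR4, KIT ligand, a survival factor, and the adhesion molecule VCAM1. Extracellular matrix proteins, CCN proteins and Wnt antagonists such as the SFRP family set how growth factor signals reach both partners. When LSK cells mature along the myeloid line, they switch on granule proteases and phagocyte genes that stroma does not normally make.

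Values were probe set intensities on a log2 scale, so a difference of 1 is 2-fold, with a shared lowest value of 2.28. Each gene was read from its probe set with the highest mean over the 13 arrays, which left 12205 genes. A gene was called when limma's test, with p-values adjusted by Benjamini and Hochberg over these genes, gave an adjusted p under 0.05. On that rule 276 genes (2.26%) were called, 78 higher (0.639%) and 198 lower (1.62%) on day 2 than on day 0. Without day 2 replicate 1, 303 genes (2.48%) were called, 113 higher (0.926%) and 190 lower (1.56%), and 170 genes were called in both fits with the same direction. With limma on the 6 arrays alone, without the spread of the other 7, no gene was called and 1453 had an unadjusted p under 0.05. The median change over all 12205 genes was -0.29 with all arrays and -0.11 without that replicate, and group changes are read against it. Scaling moved this median to -0.03 after quantile normalization and to 0.49 after centring each array on its measured probe sets. In total 3207 genes (26.3%) had an unadjusted p under 0.05 with all arrays and 2787 (22.8%) without that replicate.

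The 3 day 2 arrays were unlike each other. The gap between the 3′ and 5′ control probe sets of Gapdh, which widens as RNA is shortened, was 8.96, 3.11 and 2.93 on day 2 and 3.69, 3.82 and 2.67 on day 0 (log2, replicates 1, 2 and 3). The median over the tested genes was 5.69, 6.61 and 7.51 on day 2 and 7.47, 7.53 and 7.54 on day 0. Day 2 replicate 1 reached a correlation of at most 0.785 across genes with any other array, replicate 2 one of 0.936 and replicate 3 one of 0.987. The probe sets of the labelling control transcripts averaged 12.9, 7.06 and 7.08 on day 2 and 3.78, 4.33 and 6.20 on day 0. The part of these differences in the gene changes was not tested beyond giving each change without day 2 replicate 1.

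Stroma markers were present on day 0 (Col1a1, Col1a2, Col3a1, Pdgfra, Pdgfrb, Vim, Twist1, Prrx1 and Snai2), whereas the Thy1 probe set stayed between 2.28 and 2.59 on all 13 arrays. On day 2 the mean over 34 macrophage and pan-myeloid genes was 9.28, 5.54 and 5.77, against 3.69, 3.83 and 3.82 on day 0. The mean over 19 neutrophil granule and promyelocyte genes was 9.11, 5.16 and 5.35 on day 2, against 3.28, 3.55 and 3.41 on day 0. The mean over 19 genes of stromal identity was 6.52, 7.88 and 8.56 on day 2, against 9.29, 9.74 and 8.90 on day 0. The means of both myeloid lists were thus above day 0 on all 3 day 2 arrays and highest on replicate 1. The stromal mean was below day 0 on all 3, whereas gene by gene 7 of the 19 had all day 2 arrays below all day 0 arrays. Over all genes that share was 16.2%. In these bulk samples, fewer cells of a type and less RNA per cell cannot be told apart, and the part of blood-cell RNA in the stromal changes was not tested. Quantile normalization and centring were each applied with and without day 2 replicate 1. In each of these settings the medians of the matrix, protease, stromal identity, niche, Wnt, immediate early and smooth muscle lists stayed below 0. That of the glucocorticoid list stayed above 0, at 1.46 to 2.12. After centring, the median over all genes was itself 0.49, and 0.25 without that replicate. The neutrophil and macrophage medians also stayed above 0. On all day 0 arrays 11 of the 19 and 18 of the 34 members lay at or under 2.38 and could hardly fall, so this is a description only.

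**Figure D1:**
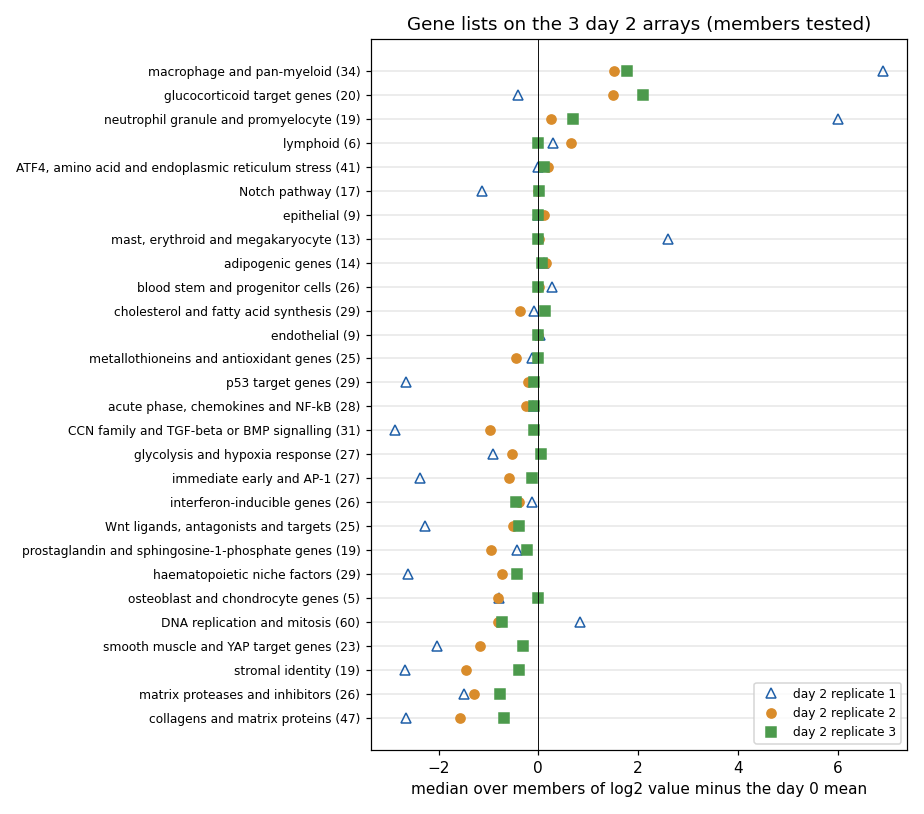
Median, over the tested members of each gene list, of the log2 value minus the day 0 mean, for the 3 day 2 arrays (number of members in brackets). Replicate 1 (triangles) lies at 6.91 for macrophage genes and at -2.65 for collagens and matrix proteins, while replicates 2 and 3 lie closer to 0 on the same side.

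Of 30 neutrophil granule and promyelocyte genes, 19 passed the filter on low values and 4 of these rose, Chil3, Ctsg, Prtn3 and Mpo. Chil3 and Ctsg had the largest rises of all called genes whose groups did not overlap. Without day 2 replicate 1, 5 rose, and the median over the 19 was 2.88 with all arrays and 0.49 without it. On all day 0 arrays 11 of the 19 lay at or under 2.38, the median of all values. Those 11 passed the filter through other arrays and could hardly fall, so the counts and medians of this list describe its members and support no comparison with other genes. Chil3 had log2 values of 13.67, 11.15 and 9.55 on day 2, against 2.36, 2.28 and 2.29 on day 0 (replicates 1, 2 and 3). Chil3 encodes a chitinase-like protein stored and secreted by myeloid cells. The change was at least 9.15 ± 1.36 (SE), adjusted p = 0.018, and at least 8.04 ± 1.36 (SE), adjusted p = 0.0297 without day 2 replicate 1, a bound because day 0 lay at or under 2.38. Ctsg had log2 values of 13.14, 9.33 and 9.92 on day 2, against 2.61, 2.61 and 2.56 on day 0, and encodes cathepsin G, a serine protease of azurophil granules. The change was 8.21 ± 0.81 (SE), adjusted p = 0.00406, and 7.03 ± 0.32 (SE), adjusted p = 0.000102 without day 2 replicate 1. Prtn3 had log2 values of 12.61, 7.79 and 8.68 on day 2, against 2.71, 3.37 and 3.37 on day 0, and encodes proteinase 3 of the same granules. The change was 6.55 ± 1.02 (SE), adjusted p = 0.0218, and 5.08 ± 0.44 (SE), adjusted p = 0.00312 without day 2 replicate 1. Mpo had log2 values of 12.36, 8.54 and 8.96 on day 2, against 3.53, 3.53 and 3.53 on day 0, the lowest value of its probe set, and encodes myeloperoxidase, the granule enzyme that makes hypochlorous acid. The change was at least 6.43 ± 0.83 (SE), adjusted p = 0.0114, and at least 5.22 ± 0.31 (SE), adjusted p = 0.000381 without day 2 replicate 1. The day 0 and medium arrays of Mpo did not vary, which narrows the spread behind both fits. On all 4 genes the lowest day 2 array was far above the highest day 0 array.

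Calls were checked by leaving out each of the 6 arrays in turn, with the adjusted p of that fit in brackets. The call of Ctsg held when any 1 of the 6 arrays was left out. That of Mpo ended without day 0 replicate 2 (adjusted p = 0.0581), and that of Prtn3 without day 0 replicate 1 or 2 (0.0687 and 0.0857). That of Chil3 ended without day 2 replicate 2 (0.0611) or day 0 replicate 1 or 2 (0.0557 and 0.078). Over all genes, 60, 26 and 125 were called without day 0 replicates 1, 2 and 3, and 32 and 3497 without day 2 replicates 2 and 3.

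The same 4 genes were measured in the other groups. Ctsg read 2.61 and 3.19 in medium, 7.06, 7.84 and 7.77 on day 1 and 11.58 and 10.97 on day 3. Mpo read 3.53 and 3.53 in medium, 5.61, 6.33 and 6.50 on day 1 and 9.86 and 10.70 on day 3. Their day 2 arrays thus lay above every medium and day 1 array, and the day 3 arrays fell within the day 2 range. Against medium, Ctsg was higher on day 2 by 7.90 (adjusted p = 0.00649) and Mpo by at least 6.43 (adjusted p = 0.0117), whereas against day 1 the differences of 3.24 and 3.81 did not pass (adjusted p = 0.378 for each). Against medium, 982 genes (8.05%) were called in all.

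The proximal promoters of 3 of these granule genes are shown because the genes move together and their control by the myeloid factor PU.1 is well known. They are the 250 bases before the annotated start from RefSeq (GRCm38.p6), 5′ to 3′ on the gene's strand, with GAGGAA, a core sequence that PU.1 binds, in capitals on either strand.
Ctsg (chr14:56102575-56102824, minus strand): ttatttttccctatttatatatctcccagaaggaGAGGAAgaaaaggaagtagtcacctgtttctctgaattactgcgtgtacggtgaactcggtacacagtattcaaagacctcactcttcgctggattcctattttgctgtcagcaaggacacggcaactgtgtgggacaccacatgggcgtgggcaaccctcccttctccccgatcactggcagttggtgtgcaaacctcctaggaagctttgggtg
Prtn3 (chr10:79879417-79879666, plus strand): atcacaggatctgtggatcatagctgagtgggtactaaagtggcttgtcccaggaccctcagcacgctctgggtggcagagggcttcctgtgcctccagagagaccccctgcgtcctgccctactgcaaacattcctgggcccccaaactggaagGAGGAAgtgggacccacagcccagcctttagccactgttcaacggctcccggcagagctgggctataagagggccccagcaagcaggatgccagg
Mpo (chr11:87793534-87793783, plus strand): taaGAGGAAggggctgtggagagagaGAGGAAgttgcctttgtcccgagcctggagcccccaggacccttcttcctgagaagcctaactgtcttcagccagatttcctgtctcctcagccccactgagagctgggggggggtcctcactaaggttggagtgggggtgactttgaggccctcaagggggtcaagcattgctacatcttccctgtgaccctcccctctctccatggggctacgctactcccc
The Ctsg and Prtn3 windows held 1 match each and the Mpo window 2, which do not overlap. Of 27025 promoters of the same length, 23.13% held at least 1 match and 3.57% at least 2. The motif was chosen after these sequences had been seen, and a match is a description of the letters, not a bound site.

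**Figure D2:**
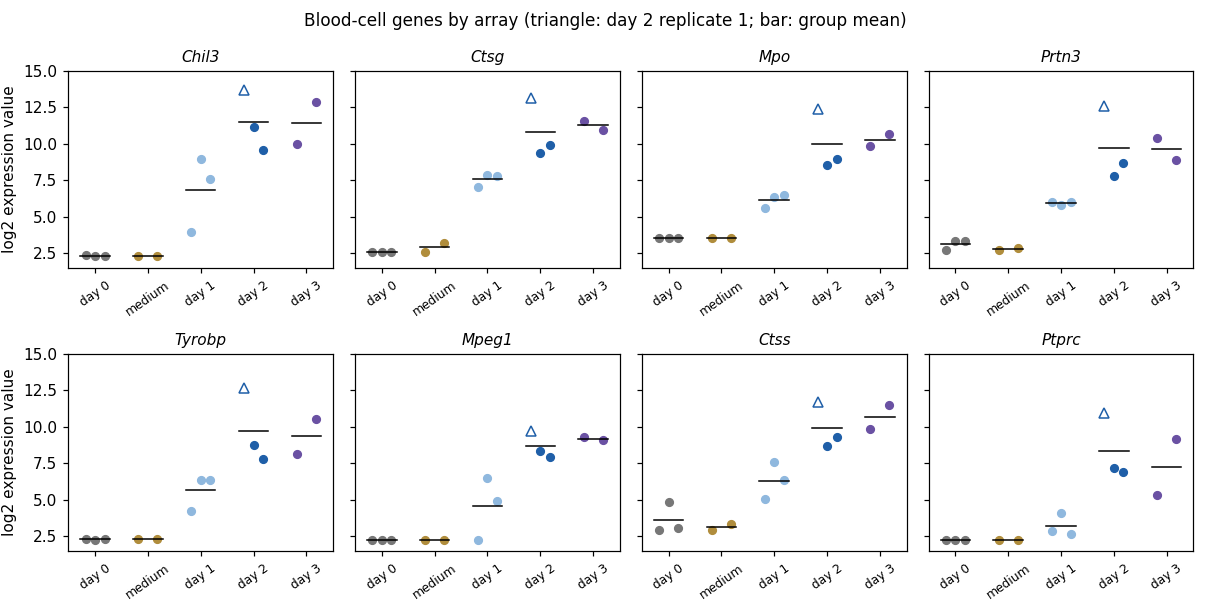
Log2 expression values of 8 blood-cell genes on all 13 arrays by group, with 1 symbol per array and a bar at the group mean. The day 2 arrays lie above all day 0 arrays for each gene, with replicate 1 (triangle) the highest of the 3.

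Of 42 macrophage and pan-myeloid genes, 34 passed the filter and 7 of these rose, Tyrobp, Mpeg1, Ptprc, Ctss, Laptm5, Lyz1 and Alox5ap. Without day 2 replicate 1, 9 rose, and the median over the 34 was 3.66 with all arrays and 1.79 without it. Since 18 of the 34 lay at or under 2.38 on all day 0 arrays, this list too had members that could hardly fall, and its counts are a description only. The probe set of the myeloid marker Itgam stayed at 2.28 on all 13 arrays. Tyrobp had log2 values of 12.70, 8.80 and 7.77 on day 2, against 2.29, 2.28 and 2.29 on day 0, and encodes the adaptor DAP12, which carries signals of activating myeloid receptors. The change was at least 7.47 ± 1.18 (SE), adjusted p = 0.0228, and at least 5.99 ± 0.81 (SE), adjusted p = 0.0146 without day 2 replicate 1. Mpeg1 had log2 values of 9.72, 8.37 and 7.94 on day 2, against 2.28, 2.28 and 2.28 on day 0, and encodes perforin-2, a pore-forming protein of phagocytes. The change was at least 6.39 ± 0.89 (SE), adjusted p = 0.015, and at least 5.87 ± 0.96 (SE), adjusted p = 0.0268 without day 2 replicate 1. Ptprc had log2 values of 10.93, 7.20 and 6.94 on day 2, against 2.28, 2.28 and 2.28 on day 0, and encodes CD45, the phosphatase that marks nucleated blood cells. The change was at least 6.07 ± 1.15 (SE), adjusted p = 0.0371, and at least 4.79 ± 0.93 (SE), adjusted p = 0.0409 without day 2 replicate 1.

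Ctss, a lysosomal protease of antigen-presenting cells, rose by 6.31 ± 0.93 (SE), adjusted p = 0.018 (5.40 ± 0.85 (SE), adjusted p = 0.0236 without day 2 replicate 1). Laptm5, a lysosomal membrane protein of blood cells, rose by 6.997 ± 1.12 (SE), adjusted p = 0.0237, but its 4 probe sets ranged from 0.36 to 6.997 and their mean changed by 2.41, which was not called (adjusted p = 0.062). Srgn, the proteoglycan core of granules, rose by 6.52 ± 1.02 (SE), adjusted p = 0.0218. Lyz1, a lysozyme, rose by 4.48 ± 0.76 (SE), adjusted p = 0.0289, and Alox5ap, which presents arachidonic acid to 5-lipoxygenase, by 5.74 ± 1.14 (SE), adjusted p = 0.0416. These calls also passed without day 2 replicate 1, with adjusted p of 0.0121 for Srgn, 0.0362 for Laptm5, 0.0386 for Alox5ap and 0.0408 for Lyz1. Cytip, an adaptor of leukocyte adhesion, changed by 7.55 ± 1.53 (SE), adjusted p = 0.0425, and its adjusted p was 0.0582 without that replicate. The mean of the Cytip probe sets changed by 4.70 (adjusted p = 0.0731).

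None of the calls of this group held through every removal of a single array. Without day 0 replicate 2 the adjusted p was 0.0667 for Mpeg1, 0.0857 for Srgn, 0.0914 for Tyrobp, 0.092 for Laptm5, 0.1 for Lyz1, 0.126 for Ptprc, 0.131 for Alox5ap and 0.14 for Cytip. Ctss lost its call only without day 0 replicate 1 (0.0598). Without day 0 replicate 1 it was 0.0498 for Mpeg1, 0.0675 for Srgn, 0.0687 for Tyrobp and Laptm5, 0.0743 for Lyz1, 0.0962 for Ptprc and 0.113 for Alox5ap and Cytip. Without day 0 replicate 3 it was 0.0265 for Laptm5, 0.039 for Mpeg1, 0.0539 for Srgn and Tyrobp, 0.0662 for Lyz1, 0.0781 for Ptprc, 0.0815 for Alox5ap and 0.089 for Cytip. Without day 2 replicate 2 it was 0.0513 for Mpeg1 and Srgn, 0.0601 for Tyrobp, 0.0759 for Laptm5, 0.0829 for Ptprc, 0.0833 for Lyz1 and Alox5ap and 0.105 for Cytip. The differences themselves stayed positive in each of these fits.

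Several other blood genes were high on day 2 replicate 1 alone. S100a8 had log2 values of 12.83, 2.60 and 3.09 on day 2, against 2.28, 2.38 and 2.40 on day 0, and encodes a calcium-binding protein of mature neutrophils. S100a9 had log2 values of 11.74, 2.28 and 2.28 on day 2, against 2.28, 2.28 and 2.28 on day 0, its partner subunit. Cybb, the catalytic subunit of the phagocyte oxidase, read 8.84, 2.28 and 2.30 on day 2 and 2.28, 2.28 and 2.28 on day 0. None of the 3 was called, and without that replicate their changes were 0.49, 0.00 and 0.01. Elane (neutrophil elastase) at 5.97, Ikzf1 (a lymphoid and progenitor transcription factor) at 9.39, Vwf (platelet von Willebrand factor) at 8.59 and Slc4a1 (the red cell anion exchanger) at 7.80 were likewise high on replicate 1, while replicates 2 and 3 lay between 2.28 and 2.90. The 13 mast, erythroid and megakaryocyte genes had no limma call in either fit, with medians of 0.97 and 0.08. In each fit 2 had an unadjusted p under 0.05 (26.3% and 22.8% of all genes). On all day 0 arrays 5 of the 13 lay at or under 2.38 and could hardly fall. Pf4, which encodes platelet factor 4, changed by 5.11 (adjusted p = 0.111) and was not called. With replicate 3 as the only day 2 array its change was 5.59, so it was not high on replicate 1 alone. The Gata1 probe set stayed at 2.28 on all 13 arrays.

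Genes of the seeded stem and progenitor cells gave a mixed record. Of 26 tested, 1 (Ptprc) rose and none fell, with a median of 0.12, and without day 2 replicate 1, 1 rose and 2 fell with a median of 0.06. On all day 0 arrays 6 of the 26 lay at or under 2.38 and could hardly fall. Myb had log2 values of 11.29, 5.39 and 5.12 on day 2, against 2.47, 2.47 and 2.47 on day 0, and encodes a transcription factor of progenitor proliferation. Its change of at least 4.79 ± 1.45 (SE), adjusted p = 0.0972 did not pass, day 0 being at the lowest value of the probe set. Lmo2 had log2 values of 7.80, 5.84 and 3.87 on day 2, against 2.42, 2.28 and 2.28 on day 0, an adaptor of blood transcription factors, and its change of 3.51 ± 0.81 (SE), adjusted p = 0.0563 did not pass either. Both genes were above all day 0 arrays on each day 2 array. Cd34 had log2 values of 7.75, 2.45 and 2.49 on day 2, against 2.94, 4.17 and 2.45 on day 0, a surface sialomucin, so that replicates 2 and 3 did not exceed day 0. The probe sets of Kit stayed at or under 2.38 on all 13 arrays, also on those with LSK cells. Those of Flt3 and Spi1 read at most 5.03 and 4.48 on any array. The 2 that fell without day 2 replicate 1, Meis1 (-1.40, adjusted p = 0.0462) and Mllt3 (-2.33, adjusted p = 0.0411), had day 0 means of 7.77 and 10.5 with no LSK cells present.

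Among the stromal genes, the deepest fall was that of Ccn3, which encodes a matricellular protein of the CCN family known to support stem cell activity. Ccn3 had log2 values of 3.42, 2.28 and 3.69 on day 2, against 10.89, 12.02 and 9.98 on day 0. The change was -7.84 ± 0.78 (SE), adjusted p = 0.00406, and -7.98 ± 0.91 (SE), adjusted p = 0.00896 without day 2 replicate 1, and the call held when any 1 of the 6 arrays was left out. Ccn3 read 7.01 and 7.43 in medium and 6.22, 3.88 and 3.42 on day 1, and day 2 was lower than medium by 4.09 (adjusted p = 0.0285). Its relative Ccn2, known as connective tissue growth factor, was higher on day 2 by its values. Ccn2 had log2 values of 10.92, 13.14 and 13.73 on day 2, against 10.12, 10.06 and 10.63 on day 0, with all day 2 arrays above day 0. Its change was 2.33 ± 0.70 (SE), adjusted p = 0.0956, and 3.16 ± 0.50 (SE), adjusted p = 0.0243 without day 2 replicate 1, so it was called only without that array. In medium Ccn2 read 13.62 and 13.61, and day 2 did not differ from it by the test (-1.02, adjusted p = 0.419). Of the 31 CCN and TGF-beta or BMP genes tested, 2 fell and none rose (median -1.16), against 1.62% and 0.639% of all genes. Without replicate 1, 2 fell and 1 rose (median -0.32, or 0.03 after centring), against 1.56% and 0.926%. The second to fall was Bmp6, a bone morphogenetic protein, by 2.59 ± 0.45 (SE), adjusted p = 0.0289. Its call ended without day 2 replicate 2 (0.086) and without day 0 replicates 1, 2 and 3 (0.0757, 0.117 and 0.0547). Bmp6 read 4.08 and 4.39 in medium, and day 2 did not differ from it by the test (-0.74, adjusted p = 0.37).

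Of 29 niche factors tested, Cxcl12, Vcam1, Jag1 and Fgf7 fell and none rose, against 1.62% and 0.639% of all genes. Their median was -0.99, and all 3 day 2 arrays lay below day 0 for 12, against 16.2% of all genes. Without day 2 replicate 1, 2 fell and 1 rose (median -0.71), against 1.56% and 0.926%. Cxcl12 had log2 values of 7.20, 8.11 and 10.00 on day 2, against 12.86, 12.19 and 11.59 on day 0. The change was -3.78 ± 0.65 (SE), adjusted p = 0.0289, and -3.16 ± 0.59 (SE), adjusted p = 0.0388 without day 2 replicate 1. Vcam1 had log2 values of 4.22, 7.46 and 8.68 on day 2, against 11.19, 11.60 and 10.44 on day 0. The change was -4.29 ± 0.91 (SE), adjusted p = 0.0478, and -3.00 ± 0.42 (SE), adjusted p = 0.015 without day 2 replicate 1. For both genes the groups did not overlap and replicate 1 was the lowest. Against medium, where Cxcl12 read 12.10 and 12.28 and Vcam1 10.89 and 10.72, the changes on day 2 were -3.75 (adjusted p = 0.0216) and -4.02 (adjusted p = 0.0449).

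Jag1, a Notch ligand, fell by 3.54 ± 0.72 (SE), adjusted p = 0.0425, and Fgf7, an epithelial growth factor, fell by 2.92 ± 0.61 (SE), adjusted p = 0.0458, but without day 2 replicate 1 neither was called (0.0509 and 0.0668). Kitl had log2 values of 3.57, 10.46 and 10.66 on day 2, against 11.40, 12.84 and 11.25 on day 0, so that only replicate 1 lay far below. Its change was -3.60 ± 1.58 (SE), adjusted p = 0.185, and -1.27 ± 0.52 (SE), adjusted p = 0.192 without that replicate. Il6, a cytokine of acute inflammation, read 2.69, 2.33 and 3.02 on day 2 and 6.84, 8.27 and 4.35 on day 0, with a change of -3.81 ± 1.02 (SE), adjusted p = 0.0766. The 1 rise without replicate 1 was Cdh2, which encodes N-cadherin, by 1.33 ± 0.27 (SE), adjusted p = 0.046. The calls of Cxcl12, Vcam1, Jag1 and Fgf7 ended without day 2 replicate 2 (0.0851, 0.0944, 0.113 and 0.106), without day 0 replicate 1 (0.085, 0.127, 0.113 and 0.132) and without day 0 replicate 2 (0.104, 0.161, 0.153 and 0.161). Without day 0 replicate 3, Cxcl12 was called (0.0486), and Vcam1, Jag1 and Fgf7 were not (0.0796, 0.075 and 0.0581). A dimmer Cxcl12 probe set changed by 0.23 and another by -4.95, and dimmer Vcam1 and Jag1 sets changed by -0.075 and -1.05.

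**Figure D3:**
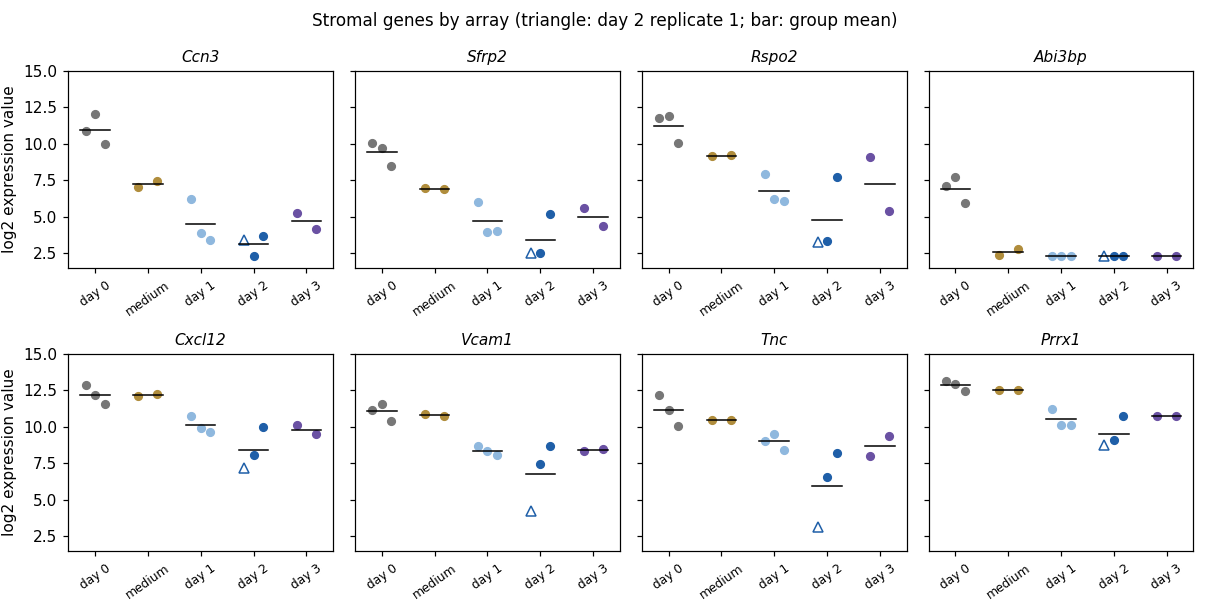
Log2 expression values of 8 stromal genes on all 13 arrays by group, with 1 symbol per array and a bar at the group mean. All day 2 arrays lie below all day 0 arrays for each gene, and Abi3bp lies at 2.28 on every day 2 array.

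Secreted regulators of Wnt signalling were among the deepest falls. Sfrp2 had log2 values of 2.52, 2.49 and 5.21 on day 2, against 10.08, 9.71 and 8.48 on day 0, and encodes a secreted frizzled-related Wnt modulator. The change was -6.02 ± 0.84 (SE), adjusted p = 0.015, and -5.57 ± 0.92 (SE), adjusted p = 0.0283 without day 2 replicate 1. Rspo2 had log2 values of 3.29, 3.30 and 7.69 on day 2, against 11.74, 11.91 and 10.02 on day 0, and encodes R-spondin 2, which amplifies Wnt receptor signals. The change was -6.46 ± 1.30 (SE), adjusted p = 0.0425, and -5.72 ± 1.42 (SE), adjusted p = 0.0748 without day 2 replicate 1, where it was not called, and a dimmer Rspo2 probe set changed by 0.32. On both genes replicate 3 stood above the other day 2 arrays. Sfrp1 read 4.35, 4.47 and 10.29 on day 2 and 11.73, 13.66 and 11.88 on day 0 and was not called (-6.05 ± 1.70 (SE), adjusted p = 0.0852). Wnt5a, a non-canonical ligand, was not called either (-3.20 ± 1.20 (SE), adjusted p = 0.143). Of 25 Wnt genes tested, 2 fell and none rose, against 1.62% and 0.639% of all genes. Their median was -0.93 (-0.46 without replicate 1, where 1 fell, against 1.56% of all genes). All day 2 arrays were below day 0 for 10 of them, against 16.2% of all genes. The Sfrp2 call ended without day 2 replicate 2 (0.0566) and without day 0 replicate 1 or 2 (0.0506 and 0.0734). That of Rspo2 ended without day 2 replicate 2 (0.114) and day 0 replicates 1, 2 and 3 (0.119, 0.151 and 0.068). In medium Sfrp2 read 6.95 and 6.89 and Rspo2 9.15 and 9.23. The day 2 minus medium differences of -3.52 and -4.43 were not called (adjusted p = 0.0505 and 0.0877).

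Wnt2 was the 1 gene (0.00819%) called between day 2 and day 1. It had log2 values of 2.71, 2.77 and 3.57 on day 2, against 5.19, 5.13 and 5.53 on day 1. Day 0 arrays read 2.67, 2.72 and 2.69, medium arrays 2.76 and 2.72 and day 3 arrays 2.71 and 2.69, so that the day 1 arrays stood above every other array. The day 2 minus day 1 difference was -2.27 (adjusted p = 0.0431), and -2.11 (adjusted p = 0.058), not called, without day 2 replicate 1. In that fit the 1 gene called between these days was another, Chdh, which encodes the mitochondrial choline dehydrogenase and was chosen after its values were seen. Chdh read 6.93, 5.28 and 4.89 on day 2 and 2.30, 2.35 and 2.33 on day 1, with 2.28, 2.28 and 2.28 on day 0 and 5.57 and 5.12 on day 3. Its day 2 minus day 0 change was at least 3.42 ± 0.43 (SE), adjusted p = 0.0114.

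Of 47 collagens and matrix proteins tested, Abi3bp, Dcn, Fbn2 and Tnc fell and none rose, against 1.62% and 0.639% of all genes. Their median was -1.75. For 24 all day 2 arrays lay below all day 0 arrays, against 16.2% of all genes. None showed the opposite, against 6.46% of all genes. Without day 2 replicate 1 again 4 fell and none rose, against 1.56% and 0.926% of all genes, with a median of -1.31. Abi3bp had log2 values of 2.28, 2.28 and 2.28 on day 2, against 7.09, 7.71 and 5.91 on day 0, and encodes a secreted matrix protein. Its fitted change was -4.62 ± 0.37 (SE), adjusted p = 0.00145, and -4.62 ± 0.43 (SE), adjusted p = 0.004 without replicate 1. The true fall may be deeper, since all day 2 arrays were at the lowest value. All Abi3bp arrays of day 1 and day 3 were there too, with no spread, while the day 0 SD was 0.91. Its SE, its p and its hold under removals thus rest in part on arrays that could not vary. In medium Abi3bp read 2.41 and 2.81, and day 2 did not differ from it by the test (-0.33, adjusted p = 0.637). Dcn had log2 values of 2.76, 2.76 and 2.37 on day 2, against 5.20, 5.12 and 5.07 on day 0, and encodes the proteoglycan decorin. The change was -2.50 ± 0.20 (SE), adjusted p = 0.00145, and -2.57 ± 0.20 (SE), adjusted p = 0.0021 without day 2 replicate 1. Dcn read 2.80 and 2.78 in medium, and day 2 did not differ from it by the test (-0.16, adjusted p = 0.668). All Dcn arrays outside day 0 lay between 2.37 and 2.86, close to the shared lowest value of 2.28, which may narrow the spread behind its test. Fbn2, a microfibril component, fell by 4.36 ± 0.51 (SE), adjusted p = 0.00777, and tenascin C (Tnc) had log2 values of 3.17, 6.58 and 8.22 on day 2, against 12.18, 11.16 and 10.07 on day 0. The change was -5.15 ± 1.10 (SE), adjusted p = 0.0494, and -3.74 ± 0.71 (SE), adjusted p = 0.0404 without day 2 replicate 1. The calls of Abi3bp, Dcn and Fbn2 held when any 1 of the 6 arrays was left out, but that of Dcn ended after centring each array (-1.72, adjusted p = 0.0841). That of Tnc ended without day 2 replicate 2 (0.104) and day 0 replicates 1, 2 and 3 (0.14, 0.155 and 0.0749). Day 2 minus medium was -2.12 for Fbn2 (adjusted p = 0.0513) and -4.51 for Tnc (adjusted p = 0.0542), and neither was called.

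The main fibrillar collagen of stroma was not called. Col1a1 had log2 values of 6.43, 7.58 and 8.02 on day 2, against 8.85, 9.85 and 8.62 on day 0, with all day 2 arrays lower, and its change was -1.76 ± 0.47 (SE), adjusted p = 0.0766. Of the 19 genes of stromal identity, Prrx1 alone was called, against 2.26% of all genes. Prrx1 had log2 values of 8.76, 9.11 and 10.77 on day 2, against 13.14, 12.93 and 12.49 on day 0, and encodes a homeobox factor of mesenchyme. The change was -3.31 ± 0.50 (SE), adjusted p = 0.0194, and -2.91 ± 0.50 (SE), adjusted p = 0.0313 without day 2 replicate 1, but the call ended without day 2 replicate 2 (0.0717) and without day 0 replicate 1 or 2 (0.0658 and 0.0857). The median of these 19 genes was -1.45 with all arrays and -1.02 without replicate 1. Of 26 matrix proteases and inhibitors, 3 fell and none rose (median -1.32), against 1.62% and 0.639% of all genes. Without replicate 1 none was called (median -1.09), against 2.48% of all genes. The 3 were the aggrecanase Adamts5 at -4.16 ± 0.88 (SE), adjusted p = 0.0467, the gelatinase Mmp2 at -2.05 ± 0.41 (SE), adjusted p = 0.0425, and the lysosomal protease Ctsb at -1.15 ± 0.23 (SE), adjusted p = 0.0425. Their adjusted p without replicate 1 was 0.0778, 0.0625 and 0.0572, and their calls ended without day 2 replicate 2 and each day 0 array as well (0.0528 to 0.161). None of the 3 differed between day 2 and medium by the test (adjusted p = 0.099, 0.679 and 0.193).

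Further deep falls lay outside these groups. Olfml3, a secreted olfactomedin-like protein, fell by 5.49 ± 0.93 (SE), adjusted p = 0.0289. Npr3, the clearance receptor of natriuretic peptides, fell by 4.89 ± 0.85 (SE), adjusted p = 0.0289. Both also passed without day 2 replicate 1 (0.0464 and 0.0495), but not without day 2 replicate 2 (0.0833 and 0.086), day 0 replicate 1 (0.0825 and 0.0875) or day 0 replicate 2 (0.114 and 0.113). Rerg, a Ras-like GTPase, fell by 4.41 ± 0.45 (SE), adjusted p = 0.00465, a call that held when any 1 of the 6 arrays was left out. Rerg read 3.40 and 3.30 in medium, and day 2 did not differ from it by the test (-0.47, adjusted p = 0.568). Thbd, which encodes the anticoagulant receptor thrombomodulin, fell by 3.75 ± 0.65 (SE), adjusted p = 0.0289, with 3.22 and 2.94 in medium. Its call ended without day 2 replicate 2 (0.086) and without day 0 replicates 2 and 3 (0.0858 and 0.0581). Fat4, an atypical cadherin, changed by -5.09 ± 1.07 (SE), adjusted p = 0.0458, and the gene AW551984 by -7.02 ± 1.28 (SE), adjusted p = 0.0334, but without replicate 1 neither was called (0.0803 and 0.0555). Day 2 minus medium was called for Olfml3 (-3.99, adjusted p = 0.0482) and Npr3 (-4.93, adjusted p = 0.0214). It was not called for Fat4 (-4.32, adjusted p = 0.0553) or AW551984 (-3.14, adjusted p = 0.194).

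The metallothioneins Mt2 and Mt1, small metal-binding proteins, rose. Mt2 had log2 values of 12.72, 13.19 and 12.63 on day 2, against 9.13, 8.45 and 8.29 on day 0. The change was 4.23 ± 0.28 (SE), adjusted p = 0.000756, and 4.29 ± 0.31 (SE), adjusted p = 0.00123 without day 2 replicate 1. Mt1 had log2 values of 13.35, 12.68 and 12.13 on day 2, against 10.41, 10.37 and 9.73 on day 0. The change was 2.55 ± 0.31 (SE), adjusted p = 0.00868, and 2.24 ± 0.25 (SE), adjusted p = 0.00861 without day 2 replicate 1. Both calls held when any 1 of the 6 arrays was left out, but that of Mt1 ended with the mean of its probe sets (1.89, adjusted p = 0.17), which changed by 1.23 and 2.55. Levels were also high without LSK cells. In medium Mt2 read 12.51 and 12.57 and Mt1 11.98 and 11.88, and day 2 differed from medium by 0.31 ± 0.31 (SE, adjusted p = 0.54) and 0.79 ± 0.34 (SE, adjusted p = 0.177). On day 1 Mt2 read 13.07, 13.29 and 13.41 and Mt1 12.52, 12.63 and 12.76. Of 25 metallothionein and antioxidant genes, 3 rose and none fell, against 0.639% and 1.62% of all genes, with a median of -0.36 (0.42 after centring). The third was Cat (catalase), at 0.85 ± 0.18 (SE), adjusted p = 0.0498, whose dimmer probe set changed by -1.41, and which changed sign to -0.28 when probe sets were averaged.

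Metallothionein promoters are shown because the pair lies side by side on chromosome 8 and rose together. The 250 bases before each annotated start are given from RefSeq (GRCm38.p6), 5′ to 3′ on the plus strand. Capitals mark TGCACNC or TGCGCNC, the core of the metal response element bound by the zinc-sensing factor MTF1, on either strand.
Mt2 (chr8:94172368-94172617, plus strand): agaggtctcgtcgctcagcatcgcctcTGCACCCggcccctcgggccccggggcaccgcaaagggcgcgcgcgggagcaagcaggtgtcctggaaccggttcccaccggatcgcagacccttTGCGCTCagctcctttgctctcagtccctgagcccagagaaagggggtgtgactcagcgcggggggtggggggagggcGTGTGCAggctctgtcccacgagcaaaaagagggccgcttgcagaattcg
Mt1 (chr8:94178839-94179088, plus strand): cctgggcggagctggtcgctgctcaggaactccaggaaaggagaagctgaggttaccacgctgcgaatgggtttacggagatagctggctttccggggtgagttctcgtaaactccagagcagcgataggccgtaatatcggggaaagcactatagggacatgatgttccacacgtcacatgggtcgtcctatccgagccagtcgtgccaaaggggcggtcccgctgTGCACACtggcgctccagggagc
The Mt2 window held 3 matches, 2 on the strand shown and 1 on the opposite strand, and the Mt1 window 1. Bases past the annotated starts were not searched, so these are not counts for the whole promoters. Of 27025 promoters of this length, 21.27% held at least 1 match and 5.19% at least 2. This motif too was chosen after the sequences had been seen, and a match is a description of the letters.

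Of 20 genes known to respond to glucocorticoids, Tsc22d3, Klf13, Tgm2, Mt1 and Mt2 rose and none fell, against 0.639% and 1.62% of all genes. Their median was 1.23. Without day 2 replicate 1, 7 rose, against 0.926% of all genes, with a median of 1.77. Tsc22d3 had log2 values of 9.89, 9.67 and 11.81 on day 2, against 7.06, 7.68 and 7.80 on day 0, and encodes GILZ, an anti-inflammatory leucine zipper protein. The change was 2.95 ± 0.57 (SE), adjusted p = 0.0389, and 3.23 ± 0.63 (SE), adjusted p = 0.0422 without day 2 replicate 1. Klf13 had log2 values of 8.97, 7.79 and 8.12 on day 2, against 5.86, 5.24 and 4.95 on day 0, a zinc finger factor. The change was 2.95 ± 0.32 (SE), adjusted p = 0.00591, and 2.61 ± 0.25 (SE), adjusted p = 0.0049 without day 2 replicate 1, and this call held when any 1 of the 6 arrays was left out. Tgm2 had log2 values of 12.32, 12.16 and 9.66 on day 2, against 4.65, 4.68 and 7.48 on day 0, and encodes the crosslinking enzyme transglutaminase 2. The change was 5.78 ± 0.92 (SE), adjusted p = 0.0228, and 5.31 ± 1.02 (SE), adjusted p = 0.0407 without day 2 replicate 1, and its 5 probe sets ranged from 0.062 to 6.35. Fkbp5 had log2 values of 8.38, 12.03 and 12.68 on day 2, against 8.29, 9.43 and 9.27 on day 0, a co-chaperone of steroid receptors. Its change was 2.04 ± 0.97 (SE), adjusted p = 0.213, and 3.36 ± 0.51 (SE), adjusted p = 0.0222 without replicate 1, which alone lay within the day 0 range.

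These levels were high in medium too. Tsc22d3 read 11.97 and 11.87, Klf13 7.91 and 7.96, Tgm2 8.61 and 8.69 and Fkbp5 13.31 and 13.15 there. The day 2 minus medium differences were -1.46 for Tsc22d3, 0.36 for Klf13, 2.73 for Tgm2 and -2.20 for Fkbp5, and none was called (adjusted p = 0.18, 0.53, 0.127 and 0.228). Over the 20 genes the median change from day 0 was 1.75 in medium, 2.10 on day 1, 1.23 on day 2 and 1.71 on day 3, and all of these share the day 0 arrays. The Tsc22d3 call ended without day 2 replicate 2 (0.0687) and day 0 replicates 1, 2 and 3 (0.114, 0.126 and 0.0743). That of Tgm2 ended without day 2 replicate 2 (0.0829) and day 0 replicates 1 and 2 (0.071 and 0.094).

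**Figure D4:**
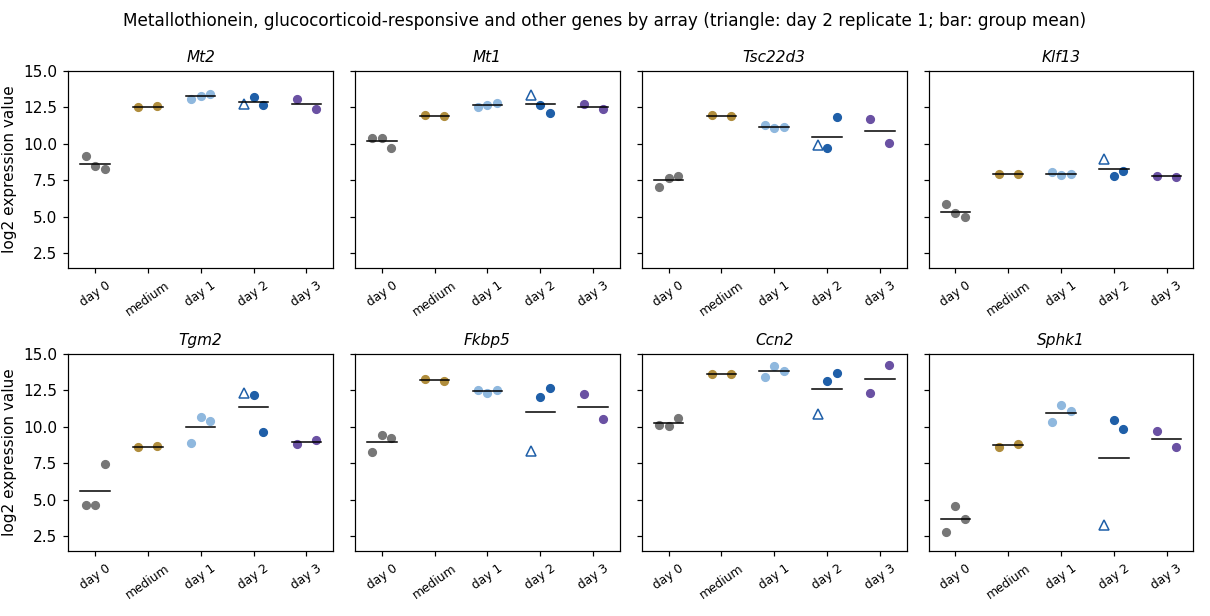
Log2 expression values of 8 genes on all 13 arrays by group, with 1 symbol per array and a bar at the group mean. Every array outside day 0 lies above all day 0 arrays for Mt2, Mt1 and Klf13, whereas day 2 replicate 1 (triangle) lies apart for Fkbp5 (8.38), Ccn2 (10.92) and Sphk1 (3.27).

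Some rises were called only without day 2 replicate 1. Sphk1 had log2 values of 3.27, 10.45 and 9.84 on day 2, against 2.81, 4.59 and 3.72 on day 0, and encodes sphingosine kinase 1, which makes sphingosine-1-phosphate. Its change was 4.15 ± 1.56 (SE), adjusted p = 0.144, and 6.44 ± 0.56 (SE), adjusted p = 0.00312 without that replicate. Medium arrays read 8.65 and 8.84 and day 1 arrays 10.36, 11.51 and 11.09. Kdr had log2 values of 2.56, 10.16 and 8.95 on day 2, against 6.28, 5.89 and 6.66 on day 0, a receptor of VEGF and an endothelial marker, and its change was 0.94 ± 1.57 (SE), adjusted p = 0.702, against 3.28 ± 0.45 (SE), adjusted p = 0.015 without replicate 1. In medium Kdr read 10.40 and 10.42, and the endothelial probe sets of Pecam1 and Cdh5 stayed at 2.28 on all 13 arrays. Both genes had replicates 2 and 3 far above day 0 and replicate 1 within or below the day 0 range.

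Fatty acid carriers and a serine enzyme also rose. Fabp4 read 10.54, 11.32 and 11.94 on day 2 and 8.82, 9.87 and 9.13 on day 0, a change of 1.99 ± 0.36 (SE), adjusted p = 0.0337. Fabp5, a second fatty acid binding protein, rose by 1.71 ± 0.29 (SE), adjusted p = 0.0289. Phgdh, the first enzyme of serine synthesis, rose by 1.82 ± 0.29 (SE), adjusted p = 0.0237, with 1 of its 4 probe sets at -0.39. All 3 passed without day 2 replicate 1 (0.0132, 0.0401 and 0.0364). Their calls ended without day 0 replicate 2 (0.0631, 0.104 and 0.094) and replicate 3 (0.077, 0.063 and 0.0547), and those of Fabp4 and Phgdh also without day 2 replicate 2 (0.0883 and 0.0633), and that of Fabp4 without day 0 replicate 1 (0.094). The 3 genes averaged 11.27, 12.70 and 12.31 on day 2, against 11.10, 13.23 and 12.40 in medium, and none differed by the test (adjusted p = 0.829, 0.325 and 0.904). Of 41 genes of the ATF4 and endoplasmic reticulum stress list, Phgdh alone was called (median -0.03), against 2.26% of all genes. Of 14 adipogenic genes, Fabp4 and Fabp5 alone were called (median 0.12), against the same 2.26%.

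Proliferation genes split the day 2 arrays. Of 60 genes of DNA replication and mitosis, 2 fell and none rose, against 1.62% and 0.639% of all genes. Their median of -0.23 turned to 0.18 after quantile normalization and 0.55 after centring. Without day 2 replicate 1, 3 fell, against 1.56% of all genes, with a median of -0.88. The median deviation from the day 0 mean was 0.84 on replicate 1, -0.81 on replicate 2 and -0.72 on replicate 3. Mki67 had log2 values of 12.68, 4.54 and 6.17 on day 2, against 8.30, 7.65 and 7.17 on day 0, the proliferation antigen Ki-67. Its change was 0.09 ± 1.88 (SE), adjusted p = 0.991, and -2.35 ± 1.20 (SE), adjusted p = 0.271 without replicate 1, so that its sign turned with that array. Pcna had log2 values of 11.47, 11.88 and 11.71 on day 2, against 12.60, 12.89 and 12.94 on day 0, the sliding clamp of DNA polymerase. The change was -1.12 ± 0.21 (SE), adjusted p = 0.0352, and -1.02 ± 0.20 (SE), adjusted p = 0.0456 without day 2 replicate 1, but the call ended without day 2 replicate 2 (0.0687) and day 0 replicates 1, 2 and 3 (0.0687, 0.126 and 0.0796), and after centring the change was -0.35 (adjusted p = 0.542). The mitotic kinase Aurka changed by -2.74 ± 0.59 (SE), adjusted p = 0.0498 and was not called without replicate 1 (0.0543), without day 2 replicate 2 (0.126) or without a day 0 array (0.104 to 0.123). Cdk1 (-2.53 ± 0.47 (SE), adjusted p = 0.0387) and Birc5 (-2.94 ± 0.57 (SE), adjusted p = 0.0415), a mitotic kinase and survivin, were called only without replicate 1. Against medium, where Pcna read 13.41 and 13.33, day 2 changed by -1.69 (adjusted p = 0.0104).

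Calls among interferon and inflammatory genes were all falls. Of 26 interferon-inducible genes, 2 fell and none rose, against 1.62% and 0.639% of all genes. Their median of -0.39 turned to 0.075 after quantile normalization and 0.38 after centring. Without day 2 replicate 1, 3 fell (median -0.46), against 1.56% of all genes. Irgm1, an immunity-related GTPase, fell by 2.08 ± 0.29 (SE), adjusted p = 0.0157, and Ifit3, an interferon-induced antiviral protein, fell by 0.72 ± 0.15 (SE), adjusted p = 0.0425, with 2.51 on all day 2 arrays, against 3.04, 3.32 and 3.32 on day 0. Centring the arrays turned the sign of Ifit3 (0.058), and its call ended without day 2 replicate 2 (0.086) and day 0 replicates 1, 2 and 3 (0.0687, 0.149 and 0.1). That of Irgm1 ended after centring (-1.30, adjusted p = 0.156), without day 2 replicate 2 (0.0566) and day 0 replicate 2 (0.0581). Medium arrays read 3.24 and 2.83 for Irgm1 and 2.45 and 2.51 for Ifit3. Day 2 did not differ from medium by the test (-0.32, adjusted p = 0.549, and 0.03, adjusted p = 0.942). Of 28 acute phase, chemokine and NF-kB genes, 1 fell and none rose, against 1.62% and 0.639% of all genes. Their median of -0.31 turned to 0.46 after centring. The 1 called was Tnfaip6, a hyaluronan-binding protein, which fell by 1.68 ± 0.32 (SE), adjusted p = 0.0361. It was not called without day 2 replicate 1 or 2 (0.0554 and 0.0861) or day 0 replicate 1 or 2 (0.0658 and 0.0736). Tnfaip6 read 2.47 and 3.14 in medium, and day 2 did not differ from it by the test (-0.40, adjusted p = 0.482). Saa3 had log2 values of 11.81, 9.77 and 7.90 on day 2, against 5.04, 7.18 and 5.95 on day 0, an acute phase serum amyloid, and its change of 3.77 ± 1.18 (SE), adjusted p = 0.105 did not pass. Lcn2, an iron-sequestering lipocalin, changed by at least 3.50 ± 0.96 (SE), adjusted p = 0.0802. Both had all day 2 arrays above day 0.

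No gene was called in either fit among 29 p53 targets (median -1.11, and -0.21 without day 2 replicate 1), 27 immediate early genes (-1.60 and -0.37), 29 cholesterol and fatty acid synthesis genes (0.041 and 0.051) or 27 glycolysis genes (-0.56 and -0.36). By limma's unadjusted p under 0.05, 11, 10, 7 and 6 of their members passed with all arrays, against 26.3% of all genes. The p53 median without replicate 1 turned to 0.007 after quantile normalization and 0.15 after centring, and the glycolysis median with all arrays to 0.22 after centring. Cdkn1a had log2 values of 10.83, 13.74 and 13.40 on day 2, against 13.22, 13.57 and 13.64 on day 0, and encodes the p53-induced cell cycle inhibitor p21. Its change was -0.83 ± 0.66 (SE), adjusted p = 0.407, and 0.09 ± 0.32 (SE), adjusted p = 0.923 without replicate 1. Immediate early genes were lowest on that array, as for Jun, which read 4.33, 9.33 and 10.83 on day 2 and 12.25, 12.74 and 10.99 on day 0.

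The other lists had 1 call or none each with all arrays. Among 23 smooth muscle and YAP target genes (median -1.37) and 19 prostaglandin and sphingosine-1-phosphate genes (median -0.56) none was called with all arrays, and Ccn2 and Sphk1 were the 1 rise each without day 2 replicate 1. By limma's unadjusted p under 0.05, 13 and 10 of them passed with all arrays, against 26.3% of all genes. The prostaglandin median turned to 0.22 after centring. Of 17 Notch genes Jag1 alone was called (median -0.42, and 0.35 after centring), against 2.26% of all genes. Of 9 epithelial genes Krt19 alone was called, against the same 2.26%, a keratin that fell by 2.20 ± 0.44 (SE), adjusted p = 0.0422. Its call ended without each array in turn other than day 2 replicate 3 (0.057 to 0.125). None of 6 lymphoid, 9 endothelial or 5 osteoblast and chondrocyte genes was called with all arrays. They had 1, 1 and 0 unadjusted p-values under 0.05, against 26.3% of all genes.

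**Figure D5:**
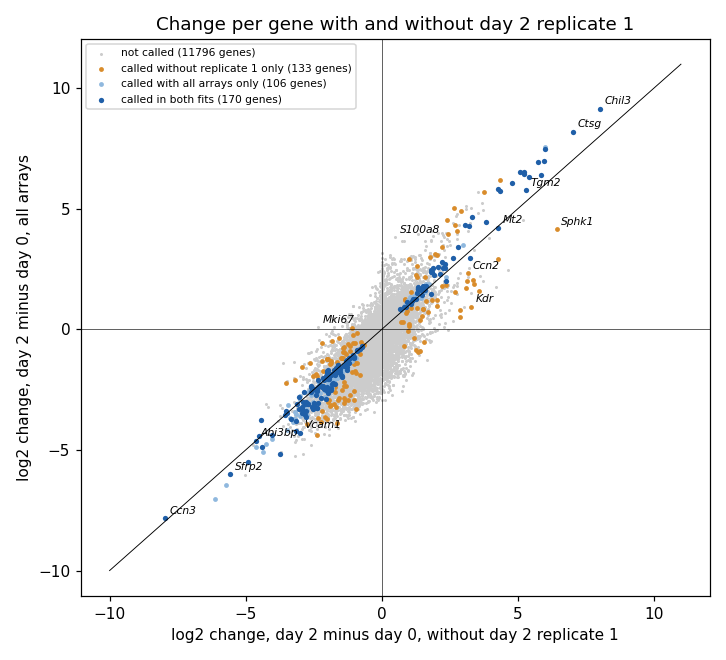
Log2 difference, day 2 minus day 0, of 12205 genes, with all arrays (vertical) against the same without day 2 replicate 1 (horizontal), and a line of equality. Called genes are coloured by the fit that called them, with 170 called in both, and Sphk1, Ccn2 and Kdr lie below the line with larger rises without that replicate.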

How the data were processed

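The table was used as the authors deposited it, with 1 log2 value per probe set and array on a log2 scale that ran from 2.28 to 15.7. The submitters' processing notes list RMA and GCRMA, with neither a version nor the step each was used for. RNA had been amplified to biotin-labelled antisense RNA, per the labels' protocols. Of 45101 probe sets, 64 controls, 932 with several gene symbols and 9160 with none were left out. Of the 34945 with 1 symbol, 34741 matched RefSeq by Entrez ID. Probe sets above the pooled median of 2.38 on at least 2 arrays were kept, and the brightest by mean over 13 arrays stood for each of 12205 genes, 5467 of which had several. A group at or under 2.38, or wholly at its probe set's own lowest value, gives a difference written as "at least". Arrays at a lowest value add little or no spread, so the SE and p of such genes may be too small.

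The main test was limma (3.58.1, R 4.3.3) on group means of all 13 arrays, with lmFit, contrasts.fit and eBayes and Benjamini-Hochberg adjustment over all genes. It was tested on simulated data. The number of arrays limits the precision. Figures were drawn with matplotlib 3.10.9. Named genes were the 8 largest rises and falls with all arrays and the 12 largest without day 2 replicate 1, among called genes with groups that did not overlap and a mean of 6 or more in a group, then up to 5 called members per list (or 2 by size where none was called), and a set of genes of the study's themes. Cell type markers are named as checks. The comparison, the lists and the genes were chosen with earlier results of these data known. No set test was run. Alternatives covered the filter, quantile normalization, centring, the mean of probe sets, a variance trend, array weights, the 6 arrays alone, a replicate block and the removal of arrays. The 4 alternatives that combine quantile normalization, centring, the mean of probe sets or the removal of day 2 replicate 2 with the removal of day 2 replicate 1 were chosen after seeing the data.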

Additional observations from a re-analysis of the deposited data

Results flagged for a closer look

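Wnt2 differed between days of co-culture: its change from day 0 was lower on day 2 than on day 1 by a log2 difference of -2.267 (limma, adjusted p = 0.0431), with all 3 day 2 arrays below all 3 day 1 arrays. The difference was -2.11 without day 2 replicate 1 and was not called (adjusted p = 0.058). The labelling control transcripts, which enter no comparison of genes, were brighter on every day 2 array than on every day 0 array, with 7.063 on the lowest day 2 array against 6.20 on the highest day 0 array.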

How the results depend on the processing

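The counts of called genes moved widely. The 78 genes higher and 198 lower became 38 and 68 with no filter, 105 and 123 after quantile normalization, 49 and 51 after centring, 691 and 1851 with array weights (0.0389 for day 2 replicate 1), and 0 and 0 with the 6 arrays alone, where 1453 genes had an unadjusted p under 0.05. They were 151 and 271 without the 2 arrays of large Gapdh gap. Without day 2 array 1 they were 144 and 152 after quantile normalization, 132 and 146 after centring and 81 and 178 with the mean of probe sets, and without day 2 arrays 1 and 2 they were 29 and 12. Leaving out 1 of the 6 arrays gave 7 to 735 higher and 18 to 2762 lower, with the lowest without day 0 replicate 2 or day 2 replicate 2 and the highest without day 2 replicate 3. The cause was not tested. With the replicate number as a block, 7 genes were higher and 19 lower. Deviations of same-numbered day 2 and day 0 arrays correlated by 0.137, 0.0731 and 0.0803, and every day 2 array correlated best with its own number, a hint from the data rather than the design, so the numbers were not taken to pair the arrays.

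Of 54 named genes called with all arrays, 42 were called without day 2 replicate 1, 47 after quantile normalization, 39 after centring, 11 with the block and 10 in each of the 6 single removals. With centring, calls among the genes described ended for Dcn, Thbd, Fgf7, Bmp6, Mmp2, Ctsb, Cat, Pcna, Aurka, Irgm1, Ifit3, Tnfaip6 and Krt19. With the mean of probe sets they ended for Laptm5, Cytip, Fat4, Mmp2, Ctsb, Mt1 and Cat, and the called changes shrank to -3.07 for Rspo2, -3.19 for Npr3, -3.08 for AW551984, -1.95 for Vcam1 and -2.30 for Jag1. The 10 that held in the single removals were Abi3bp, Ccn3, Ctsg, Dcn, Fbn2, Klf13, Mt1, Mt2, Rerg and Zfp874a. Cat turned to -0.277 with the mean of probe sets (-0.18 without day 2 array 1), and Ifit3 to 0.0582 after centring. Mki67 (0.09) turned to -2.50 with array weights, -2.35 without the 2 arrays of large gap, and, without day 2 array 1, -2.09 after quantile normalization, -1.998 after centring and -2.35 with the mean of probe sets, with -1.53 without day 2 arrays 1 and 2. Its single removals ran from -2.35 to 1.72 and those of Kdr from -0.52 to 3.28. Cdh2 (-0.93) turned to 1.12 with array weights and without day 2 arrays 1 and 2, 1.33 without the arrays of large gap, and, without day 2 array 1, 1.48, 1.68 and 1.45 in the same 3 settings, with single removals from -2.16 to 1.33. Cdkn1a (-0.83) turned to 0.045 with array weights, 0.088 without the arrays of large gap, and, without day 2 array 1, 0.12 after quantile normalization and 0.44 after centring, with single removals from -1.37 to 0.088. Over the 76 genes checked and 20 alternatives, 1008 values kept direction and side of the threshold, 411 lost the call, 75 gained it and 24 turned, while Ifit3 and Tnfaip6 gave no value under the stricter filter.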
